A study of Mus musculus with 98 samples.

Results

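The cytosolic ribosome is built from ribosomal RNA and a fixed set of ribosomal proteins, and the genes for these proteins are the subject here. Members were selected on their names and on a measured value: the mouse gene symbols of the forms Rpl and Rps followed by a number, together with Rplp0, Rplp1, Rplp2 and Rpsa, that occur in every count table, chosen by a count of at least 100 in each of the 6 libraries of the sorted cells and their TBLC control. Of 21811 symbols found in every table, 80 had such a name and 77 met the minimum, 47 of them for the large and 30 for the small subunit. Rpl39l, Rpl3l and Rps10 fell below the minimum. Just below it, Rpl39l had 46 and 22 counts in the PrE-T, 236 and 175 in the EPI-T and 114 and 84 in the TBLC libraries. Just above it, Rpl29 had 345 and 315 counts in the PrE-T, 235 and 159 in the EPI-T and 202 and 239 in the TBLC libraries. All 77 members passed the filter on low counts in every table, and no library had a member without a count.

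The cells are totipotent blastomere-like cells (TBLC) of the mouse, which are kept in culture in a condition close to that of early cleavage embryos, and the series follows their transcriptome and the stability of their RNA when they leave that state. Cells sorted after 3 days in SLM medium as CD140-positive are called PrE-T, for primitive endoderm, and CD140-negative cells are called EPI-T, for epiblast. The unsorted culture at that point is called diffTBLC. Undifferentiated TBLC, grown in a medium named 2MYCP, are what all of these are set against. The arm labelled TBLC_PlaB- spent 8 hours in SLM and is set against TBLC_Ctrl, kept in 2MYCP. In diffTBLC, siRNAs against Virma or Mettl3, which encode parts of the m6A methyltransferase, or against Igf2bp3, which encodes a protein that binds m6A-marked RNA, were set against the control siRNAs siNC, siNC1 and siNC2. In 4 courses actinomycin D, which blocks transcription, was given for 0, 1, 2 and 3 h: diffTBLC with TBLC, TBLC_PlaB- with TBLC_Ctrl, siVirma with siNC1 and siIgf2bp3 with siNC2. RNA bound by IGF2BP3 or by YTHDF2, another m6A reader, was immunoprecipitated from diffTBLC and set against its input. Every group had n = 2. Nothing says whether the replicates came from separate cultures, so the spread that enters each p-value may be a technical one.

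Ribosomal proteins are needed in near equal numbers, and their messenger RNAs are short, abundant and long-lived in most growing cells. Most begin with a C followed by a run of pyrimidines, the 5′ terminal oligopyrimidine (TOP) motif, through which the mTORC1 kinase and the RNA-binding protein LARP1 set their translation and protect them from decay. In the early embryo the demand for ribosomes rises as cleavage gives way to growth.

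To show the bases around the start of members, the 15 bases on either side of the annotated transcription start were read from RefSeq promoter windows of build GRCm38.p6, which is older than the mm39 build of the counts. A window was found for 57 of the 77 members. The capitals mark the longest unbroken run of C and T in the 30 bases, 5′ to 3′ on the strand of the gene. The first 15 bases lie before the start, and the run may lie anywhere in the 30. It lies wholly before the start at Rpl4 and Rpl10l, and wholly after the first transcribed base at Rpsa and Rpl10. The capitals alone therefore do not show the TOP motif. The set holds members on which the results below turn.
Rps6, chr4:86857353-86857382, minus strand: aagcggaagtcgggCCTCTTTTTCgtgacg
Rplp2, chr7:141447636-141447665, plus strand: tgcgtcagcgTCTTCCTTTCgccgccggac
Rpl35, chr2:39005117-39005146, minus strand: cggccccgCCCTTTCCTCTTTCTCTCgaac
Rpl4, chr9:64173372-64173401, plus strand: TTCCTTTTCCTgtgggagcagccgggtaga
Rps27, chr3:90213634-90213663, minus strand: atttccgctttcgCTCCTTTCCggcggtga
Rps21, chr2:180257364-180257393, plus strand: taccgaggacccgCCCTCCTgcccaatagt
Rpsa, chr9:120127751-120127780, plus strand: gtgggttatttaaggacgtcaTTTCCggcc
Rpl10, chrX:74270801-74270830, plus strand: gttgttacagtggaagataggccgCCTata
Rpl10l, chr12:66284387-66284416, minus strand: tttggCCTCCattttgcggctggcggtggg
The longest run shown was 18 bases, at Rpl35, and the shortest was 3 bases, at Rpl10. Rpl10l, a copy of Rpl10 on chromosome 12 that arose by retroposition and is known from the testis, had a run of 5 bases.

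Over all windows, 28 of the 57 members (49.1%) had a run of at least 8 pyrimidines within 20 bases of a start, against 4965 of 27025 genes (18.4%). A C followed by at least 4 pyrimidines at the start itself was found for 12 members (21.1%), against 813 genes (3.01%). The core CCGGAAG bound by ETS factors, searched on both strands from 250 bases before to 50 after the start, was found in 23 members (40.4%) and in 2683 genes (9.93%). The core AAGATGG of the factor YY1, searched in the same way, was found in 9 members (15.8%) and in 1967 genes (7.28%), and TATAAA in 6 members (10.5%) and in 4234 genes (15.7%). These matches describe the letters of the windows and were not tied to binding.

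Sequencing depth was 17595126 to 29471283 counts a library in the sorted and the diffTBLC and TBLC course tables, from 11433895 to 21108399 in the other courses, from 3968442 to 4750020 in the steady-state siRNA table and from 2483808 to 12666298 in the immunoprecipitations. Labels were checked on the targeted genes. In the steady-state table Virma had 87.1 and 81.0 CPM, the counts scaled to library size, in siVirma and 122 and 115 CPM in siNC, a log2 change of -0.50 ± 0.085 (standard error; adjusted p = 1.88e-06), while Mettl3 had 26.4 and 27.5 CPM in siMettl3 and 31.2 and 29.7 CPM in siNC, which did not pass the test (-0.18 ± 0.15, adjusted p = 0.771). In the courses Virma was lower in siVirma than in siNC1 over 1 to 3 h (-1.04 ± 0.035). Igf2bp3 was lower in siIgf2bp3 than in siNC2 over 1 to 3 h (-0.58 ± 0.041), but at 0 h it had 28.7 and 25.3 CPM in the libraries labelled siIgf2bp3 and 19.9 and 16.7 CPM in those labelled siNC2 (0.56 ± 0.079, adjusted p = 2.84e-07), against the labels. Adjusted p-values throughout come from the quasi-likelihood test of edgeR with Benjamini-Hochberg adjustment over all genes of a table, and "rose", "fell" or "called" means an adjusted p under 0.05. The share of all genes beside a count comes from the main fit. No such share is given where libraries were left out or the processing was changed.

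The share of a library taken by the 77 genes varied several-fold over the series, also between tables for cells of 1 kind. Undifferentiated TBLC without actinomycin D had 6.49% beside the sorted cells, 7.88% and 12.2% at 0 h of 2 courses, and 5.86% in TBLC2, a further pair. The share is therefore compared only within a table. Among the sorted cells it was 7.23 ± 0.22% in PrE-T and 5.88 ± 0.016% in EPI-T, against 6.49 ± 0.040% in TBLC (SD, n = 2). At 0, 1, 2 and 3 h of actinomycin D it was 10.5, 10.3, 12.1 and 15.4% in diffTBLC and 7.88, 8.56, 9.95 and 11.6% in TBLC. It was 12.1, 13.0, 15.6 and 17.6% in TBLC_PlaB- and 12.2, 15.0, 15.9 and 17.2% in TBLC_Ctrl. In these 4 arms the share at 3 h was above that at 0 h. In the siRNA courses the share also climbed in the siVirma and siIgf2bp3 arms, but not in siNC1 and siNC2. It was 11.5, 12.6, 15.0 and 15.2% in siVirma, against 17.9, 9.92, 13.9 and 12.1% in siNC1, and 10.5, 11.7, 14.1 and 20.7% in siIgf2bp3, against 17.0, 8.36, 12.3 and 9.89% in siNC2. The siNC1 and siNC2 libraries at 0 h, and the siIgf2bp3 libraries at 3 h, stood apart from their own courses, and results that rest on them are given below with and without them. In the siNC1 libraries the summed level of the 100 transcripts that fell fastest in diffTBLC still followed the labelled hours. It was 4637 and 4555 CPM at 0 h, 3222 and 3195 at 1 h, 1493 and 1505 at 2 h and 984 and 955 at 3 h. This sum also fell with each labelled hour in siNC2, from 4430 and 4450 CPM at 0 h to 972 and 962 at 3 h. The libraries labelled siIgf2bp3 did the same, from 5271 and 5240 CPM at 0 h to 887 and 881 at 3 h.

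**Figure D1:**
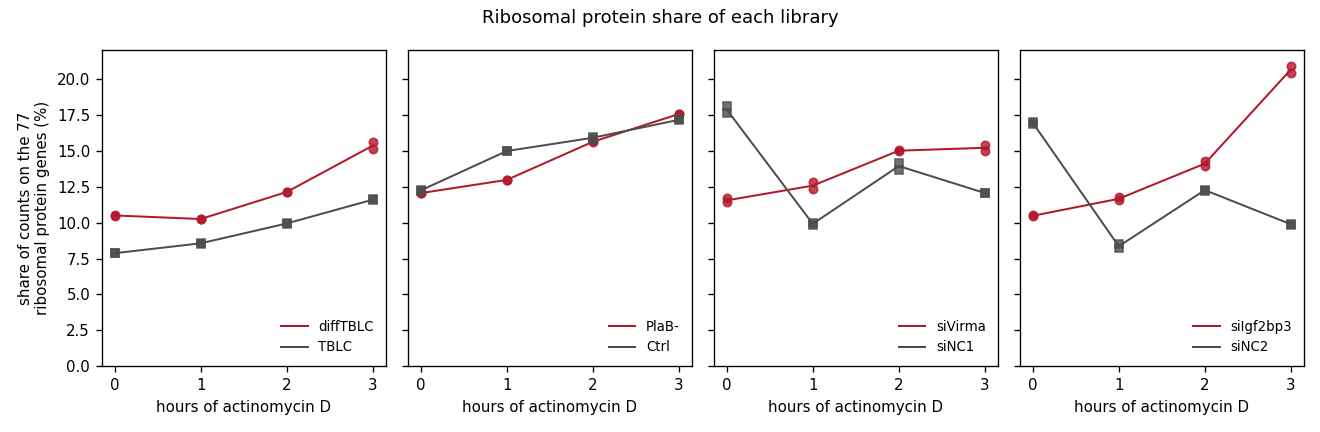
Share of all counts (%) on the 77 ribosomal protein genes in each library of the 4 actinomycin D courses, against hours of actinomycin D; points are libraries and lines join the means of the 2 replicates. The shares climb to 15.4% in diffTBLC and 11.6% in TBLC, while siNC1 and siNC2 start at 17.9 and 17.0% and lie at 9.92 and 8.36% at 1 h.

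To place the members among the states reached in SLM, the sorted cells are described first, with no test, since the count minimum that chose the members was set in these libraries. Ribosomal protein transcripts were mostly more abundant in PrE-T than in EPI-T. The median log2 difference over the 77 was 0.39 (quartiles 0.22 and 0.59), against 0.03 over all genes tested, and 74 members lay above 0. Between PrE-T and TBLC the median was 0.49, against -0.03 over all genes, with 76 members above 0. Between EPI-T and TBLC it was 0.06, against -0.07 over all genes, with 46 members above 0 and 31 below. Scaled to library totals alone, these medians were 0.28, 0.17 and -0.15.

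Of the members that leaned towards PrE-T over EPI-T, the small-subunit genes Rps18 and Rpsa did so most. Rpsa, a small-subunit protein also known as a laminin receptor precursor, had 3482 and 3611 CPM in PrE-T and 1616 and 1561 CPM in EPI-T, against 1635 and 1557 CPM in TBLC. Its log2 difference was 1.16 ± 0.046 between PrE-T and EPI-T and 1.15 ± 0.046 between PrE-T and TBLC. Both PrE-T libraries thus lay apart from the other 4. Rps18 had 1354 and 1248 CPM in PrE-T and 581 and 547 CPM in EPI-T, against 826 and 764 CPM in TBLC, so that EPI-T was the lowest group (-0.49 ± 0.056 against TBLC). Rplp0, the scaffold of the ribosomal stalk, had 1489 and 2161 CPM in PrE-T and 992 and 969 CPM in EPI-T, against 1276 and 1264 CPM in TBLC, with PrE-T replicates farther apart than those of the other groups.

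In the large subunit Rpl8, a core protein next to the peptidyl transferase centre, had 1235 and 1407 CPM in PrE-T and 972 and 919 CPM in EPI-T, against 664 and 678 CPM in TBLC. The groups did not overlap and fell in the order PrE-T, EPI-T, TBLC, with a log2 difference of 0.98 ± 0.058 between PrE-T and TBLC. Rpl10, a late-assembling protein needed for subunit joining, had 231 and 217 CPM in PrE-T and 123 and 122 CPM in EPI-T, against 154 and 145 CPM in TBLC. Rpl10l ran the other way, with 25.5 and 29.9 CPM in PrE-T and 97.6 and 91.6 CPM in EPI-T, against 94.7 and 86.8 CPM in TBLC. Its log2 difference of -1.78 ± 0.089 between PrE-T and EPI-T was the lowest of the members. Rpl10 and Rpl10l have near-identical sequences, and how reads shared by them were assigned is not given in the sources used here, so their counts are uncertain. In the course table described below, undifferentiated TBLC gave 1060 and 1027 CPM for Rpl10 and 659 and 632 CPM for Rps27, against 67.0 and 71.1 CPM for Rps27 here, whereas Rpsa gave 1748 and 1787 CPM there. Levels of a gene are for this reason compared only within a table.

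Members that hardly moved between PrE-T and EPI-T were Rps20, with 1180 and 1183 CPM in PrE-T and 1195 and 1216 CPM in EPI-T, and Rpl34, Rps26 and Rpl27, whose log2 differences were 0.03, 0.01 and -0.03. The large-subunit genes Rpl27, Rpl34, Rpl21 and Rpl35a were instead the highest in EPI-T relative to TBLC, at 0.72, 0.68, 0.68 and 0.63. Rps27 had 81.1 and 82.5 CPM in PrE-T and 58.9 and 64.2 CPM in EPI-T, against 67.0 and 71.1 CPM in TBLC. Its paralog Rps27l, a known target of p53, had 178 and 185 CPM in PrE-T and 94.3 and 118 CPM in EPI-T, against 126 and 132 CPM in TBLC. Among the related lists, the median difference between PrE-T and EPI-T was 0.20 for 77 mitochondrial ribosomal protein genes, which serve a separate ribosome, 0.31 for 16 translation factors and other TOP transcripts and -0.31 for 32 ribosome biogenesis genes.

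The labelled identities were checked on their markers. The summed level of 10 primitive endoderm markers was 16543 to 16588 CPM in PrE-T and 191 to 194 CPM in EPI-T, against 1383 to 1423 CPM in TBLC. The 6 epiblast markers summed to 766 to 810 CPM in PrE-T and 2516 to 2570 CPM in EPI-T, against 1297 to 1302 CPM in TBLC. Fibroblast and feeder markers also moved between the groups, with 178 CPM in both PrE-T libraries and 47.2 to 50.2 CPM in EPI-T, against 1041 to 1073 CPM in TBLC, and so did the 5 trophectoderm markers, with 533 to 582, 44.1 to 54.4 and 143 to 152 CPM in the same order. Markers of the 2-cell embryo, 4 of 5 listed, were highest in EPI-T and not in TBLC. They summed to 6.08 to 8.55 CPM in PrE-T and 217 to 224 CPM in EPI-T, against 98.2 to 101 CPM in TBLC. The part of all these markers in the ribosomal protein differences was not tested. In these bulk samples fewer cells of a type and less RNA per cell cannot be told apart.

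**Figure D2:**
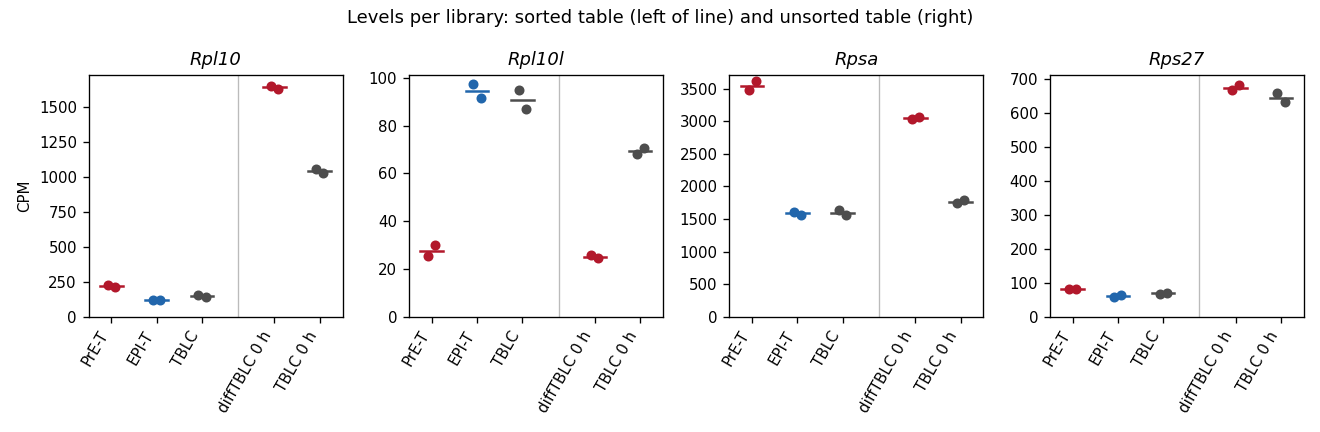
Level (CPM) of single members in each library, with PrE-T, EPI-T and TBLC of the sorted table left of the grey line and diffTBLC and TBLC at 0 h of the course table right of it; points are libraries, short lines are means, each table has its own scaling, and the axes start at 0. Rpsa reaches 3482 and 3611 CPM in PrE-T, and Rpl10l is low in PrE-T and in diffTBLC, at 24.5 to 29.9 CPM.

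Without sorting, and in libraries that the choice of members did not use, nearly every ribosomal protein transcript was higher after 3 days in SLM relative to the centre of all transcripts. At 0 h 76 of 77 members were higher in diffTBLC than in TBLC, against 42.8% of all genes tested, and 1 was lower, against 39.7% of all genes. The median log2 change was 0.61, against 0.02 over all genes, with 0.66 in the large and 0.54 in the small subunit. Over the alternative settings tried this median ran from 0.40, with library totals, to 0.63, without replicate 1 of TBLC.

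Rpl8 changed most, with 2870 and 2807 CPM in diffTBLC and 1336 and 1332 CPM in TBLC, a 2.13-fold level (log2 1.09 ± 0.022, adjusted p = 4.46e-60). Rpl35, whose protein lies at the exit of the nascent chain tunnel, had 1044 and 1039 CPM in diffTBLC and 540 and 535 CPM in TBLC (0.95 ± 0.022). Rpl21 and Rpl28 followed at 0.93 and 0.92. Rpl13a, known in other cells as a regulator of inflammatory transcripts outside the ribosome, had 137 and 139 CPM in diffTBLC and 73.6 and 73.5 CPM in TBLC (0.91 ± 0.035). In each of these the diffTBLC libraries lay well above both TBLC libraries.

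Rpsa had 3031 and 3067 CPM in diffTBLC and 1748 and 1787 CPM in TBLC (0.79 ± 0.020). Rpl11 and Rpl5, which carry the 5S ribosomal RNA and restrain the p53 regulator MDM2, rose by 0.78 ± 0.021 and 0.62 ± 0.020. Rps14, needed to mature the small subunit RNA, had 1560 and 1575 CPM in diffTBLC and 905 CPM in both TBLC libraries (0.79 ± 0.021). Rps3, at the mRNA entry channel, had 2231 and 2250 CPM in diffTBLC and 1420 and 1431 CPM in TBLC (0.65 ± 0.020). Rps6, the small-subunit protein phosphorylated downstream of mTORC1, had 1363 and 1389 CPM in diffTBLC and 1018 and 1012 CPM in TBLC (0.44 ± 0.023). The stalk genes Rplp0, Rplp1 and Rplp2 rose by 0.45 ± 0.021, 0.61 ± 0.025 and 0.58 ± 0.024. Of the 4 X-linked members, Rpl10, Rps4x, Rpl39 and Rpl36a rose by 0.66, 0.49, 0.43 and 0.39.

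The smallest rises were those of Rps27, Rpl15, Rps15a and Rps29, at 0.06, 0.13, 0.14 and 0.14. Rps27, a zinc finger protein of the small subunit, had 668 and 682 CPM in diffTBLC and 659 and 632 CPM in TBLC (0.06 ± 0.027, adjusted p = 0.0247), and scaled to library totals it was lower in diffTBLC (-0.15, adjusted p = 4.31e-07). Its paralog Rps27l had 414 and 421 CPM in diffTBLC and 260 and 251 CPM in TBLC (0.71 ± 0.027, adjusted p = 7.22e-40). The single member that fell was Rpl10l, with 25.9 and 24.5 CPM in diffTBLC and 68.0 and 70.7 CPM in TBLC (-1.46 ± 0.051, adjusted p = 1.01e-42). Its source gene Rpl10 had 1657 and 1634 CPM in diffTBLC and 1060 and 1027 CPM in TBLC. Across the 77 genes the difference between PrE-T and TBLC and the difference between diffTBLC and TBLC had a Pearson r of 0.77 and, without Rpl10l, of 0.49, as a description over genes that share libraries within a table.

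Genes around the ribosome moved as follows. Of the 77 mitochondrial ribosomal protein genes, 76 were higher and 1 was lower in diffTBLC, with a median of 0.84, above that of the cytosolic set. Of 16 translation factors and other TOP transcripts, 15 were higher and 1 was lower, with a median of 0.47. Eef1d, a subunit of the elongation factor that reloads eEF1A, rose by 1.18 ± 0.024 (adjusted p = 6.42e-60), and Naca, the alpha chain of the nascent polypeptide complex, by 0.89 ± 0.022. Of 32 ribosome biogenesis genes, 28 were higher and 3 were lower (median 0.45), with Nhp2, a small nucleolar ribonucleoprotein, at 1.37 ± 0.029 and Fbl, the RNA methylase fibrillarin, at 0.99 ± 0.025. The mTORC1 list gave 5 of 16 higher and 10 lower, with a median of -0.23: Eif4ebp1, a translational repressor under mTORC1, rose by 0.81 ± 0.034, and Rragd, a GTPase that recruits mTORC1 to the lysosome, fell by 1.55 on the log2 scale. Rpl22l1, the paralog of Rpl22, had 304 and 302 CPM in diffTBLC and 164 and 158 CPM in TBLC.

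The primitive endoderm markers summed to 3534 to 3548 CPM in diffTBLC and 326 to 331 CPM in TBLC, the fibroblast markers to 175 to 179 CPM in diffTBLC and 359 to 369 CPM in TBLC, and the trophectoderm markers to 158 to 165 CPM in diffTBLC and 67.4 to 67.5 CPM in TBLC. Their part in the result was not tested. At 1, 2 and 3 h of actinomycin D the median member difference between diffTBLC and TBLC was 0.43, 0.46 and 0.63.

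After 8 hours in SLM no such change was seen. The columns read as TBLC_PlaB- are named TBLC_S in the table and were matched to that arm because no other arm of the table lacks columns. At 0 h 12 of 77 members were lower in TBLC_PlaB- than in TBLC_Ctrl, against 0.475% of all genes, and the median log2 change was -0.03. The changes were small. Rps21, a small-subunit protein, had 765 and 759 CPM in TBLC_PlaB- and 843 CPM in both TBLC_Ctrl libraries (-0.15 ± 0.023, adjusted p = 6.02e-06). Rpl10 had 1131 and 1106 CPM in TBLC_PlaB- and 1214 and 1243 CPM in TBLC_Ctrl (-0.14 ± 0.022, adjusted p = 5.81e-06), and Rps26 and Rpl30 both fell by 0.13. The others called were Rpl15, Rps29, Rplp0, Rpl31, Rpl18, Rps16, Rps20 and Rps4x. The number fell to 3 with DESeq2, with a fit of the compared libraries alone and without replicate 2 of TBLC_PlaB- at 0 h.

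Over 1 to 3 h of actinomycin D 63 members were lower in TBLC_PlaB-, against 7.84% of all genes, with a median of -0.06. Rpl26 fell by 0.12, and Rpl3, Rplp2 and Rplp1 each by 0.11. By hour the median was -0.03, -0.23, -0.02 and 0.07 at 0, 1, 2 and 3 h, so that the difference was largest at 1 h and had the opposite sign at 3 h. The primitive endoderm markers summed to 352 to 360 CPM in TBLC_PlaB- and 354 to 362 CPM in TBLC_Ctrl at 0 h.

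**Figure D3:**
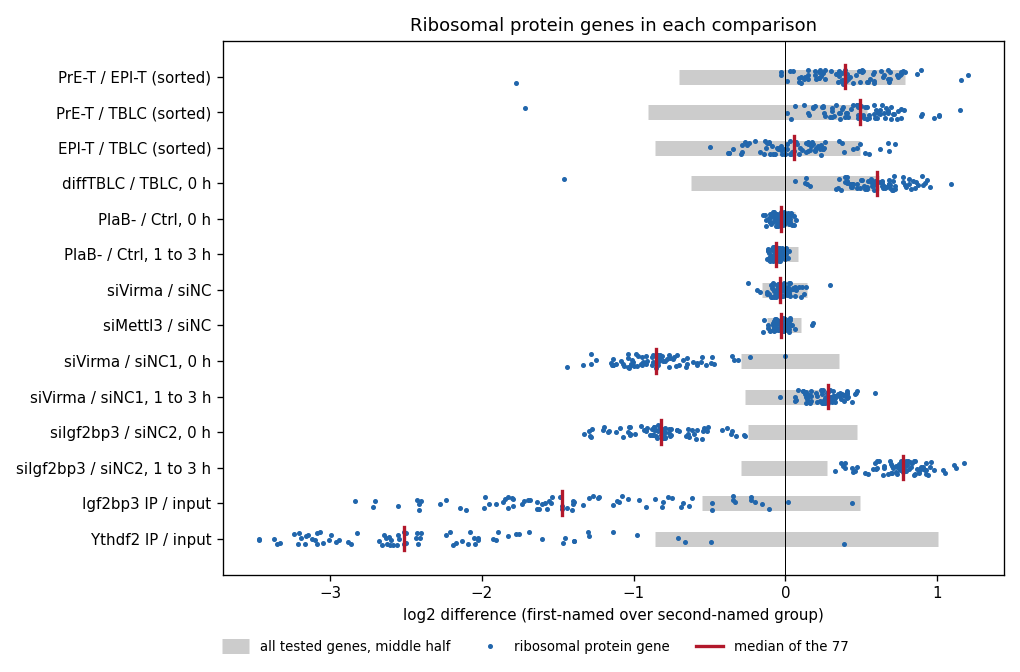
Log2 difference (first-named over second-named group) of each of the 77 members in the comparisons of groups, 1 comparison a row; blue points are genes, red lines the median of the members and grey bars the range between the quartiles of all genes tested. Members sit above 0 in PrE-T against EPI-T (median 0.39) and in diffTBLC against TBLC (median 0.61), near 0 in the PlaB- and steady-state siRNA comparisons, and below 0 in both immunoprecipitations (medians -1.47 and -2.51).

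At steady state in diffTBLC, the siRNAs against m6A methyltransferase components moved few members. In siVirma 2 members were higher than in siNC, against 3.48% of all genes, and 4 were lower, against 3.63% of all genes, shares close to those of the whole table. Rpl13a had 173 and 169 CPM in siVirma and 136 and 144 CPM in siNC (0.29 ± 0.069, adjusted p = 0.00111), and Rpl41, the smallest protein of the ribosome, had 1189 and 1298 CPM in siVirma and 1126 and 1138 CPM in siNC (0.14 ± 0.030, adjusted p = 4.97e-04). Rplp2, an acidic stalk protein, had 441 and 499 CPM in siVirma and 545 and 527 CPM in siNC (-0.19 ± 0.041, adjusted p = 3.57e-04). Rps18 had 769 and 731 CPM in siVirma and 836 and 844 CPM in siNC (-0.16 ± 0.034, adjusted p = 1.72e-04), and Rpl32 and Rpl8 fell by 0.12 and 0.09. With DESeq2 the counts were 1 higher and 1 lower, and leaving out each library in turn gave 1 to 4 higher, the fewest without replicate 1 of siNC and the most without replicate 1 of siVirma, and 2 to 6 lower.

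In siMettl3 2 members were lower than in siNC, against 0.453% of all genes. Rpl10a had 631 and 643 CPM in siMettl3 and 704 and 698 CPM in siNC (-0.14 ± 0.037, adjusted p = 0.0294), and Rplp2 had 479 and 490 CPM in siMettl3 and 545 and 527 CPM in siNC (-0.15 ± 0.041, adjusted p = 0.0460). Neither was called by DESeq2 or with any one library left out. Mettl3 itself was not called in this comparison, so the result is that of libraries labelled siMettl3. The share of counts on the members was 5.75% in siVirma and 5.72% in siMettl3, against 5.84% in siNC. The primitive endoderm markers summed to 4309 to 4318 CPM in siVirma and 5843 to 5914 CPM in siMettl3, against 6786 to 6920 CPM in siNC, and their part in these values was not tested.

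The actinomycin D courses ask how long transcripts last. With no spike-in described, a slope is the log2 change per hour relative to the centre of all transcripts: a positive slope means that a transcript was lost more slowly than most, and nothing is said of absolute half-lives. In diffTBLC all 77 members had a positive slope past the threshold, against 30.8% of all genes, and in TBLC all 77 did, against 37.2% of all genes, with a median of 0.31 per hour in both arms. In TBLC_PlaB- all 77 did, against 31.0% of all genes, with a median of 0.28, and in TBLC_Ctrl all 77 did, against 29.1% of all genes, with a median of 0.22. Leaving out the 0 h libraries gave medians of 0.45, 0.35, 0.33 and 0.17 in the same order.

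The slopes were much alike among members. In diffTBLC the quartiles were 0.30 and 0.32 per hour, and in TBLC they were 0.30 and 0.32. Rps6 measured 1363 and 1389 CPM at 0 h, 1481 and 1489 at 1 h, 1813 and 1903 at 2 h and 2402 and 2545 at 3 h in diffTBLC, and 1018 and 1012, 1171 and 1163, 1461 and 1525, and 1805 and 1849 CPM at the same hours in TBLC. Its slope was 0.29 ± 0.021 in diffTBLC and 0.29 ± 0.022 in TBLC. Rplp2 had the highest slope in diffTBLC, 0.38 ± 0.045 per hour, with 1031 and 1017 CPM at 0 h, 945 and 933 at 1 h, 1333 and 1306 at 2 h and 2301 and 2105 at 3 h, so that most of its relative gain lay between 2 and 3 h. Rplp1, its partner in the stalk, followed at 0.36 ± 0.040.

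Rpl10l had the lowest slope in all 4 of these arms, at 0.18 ± 0.034 in diffTBLC, 0.15 ± 0.029 in TBLC, 0.07 ± 0.021 in TBLC_PlaB- and 0.06 ± 0.021 in TBLC_Ctrl. Its level in TBLC was 68.0 and 70.7 CPM at 0 h, 70.8 and 72.5 at 1 h, 76.8 and 81.3 at 2 h and 92.9 and 95.3 at 3 h, while Rpl10 measured 1060 and 1027, 1151 and 1116, 1534 and 1535, and 1826 and 1796 CPM. Rpl15, a large-subunit core protein, was the next lowest in TBLC_Ctrl, at 0.14 per hour. Among related lists, 15 of 16 TOP transcripts had a positive slope past the threshold in diffTBLC and all 16 did in TBLC. Of the mitochondrial ribosomal protein genes 65 had a positive and 1 a negative slope in diffTBLC (median 0.17) and 57 and 6 in TBLC (median 0.13). Ribosome biogenesis genes were mixed, with 18 positive and 6 negative in diffTBLC and 20 and 8 in TBLC, where Rrs1, a ribosome assembly factor, fell by 0.49 per hour relative to the centre and Fbl had a slope of 0.29 ± 0.025.

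Between states no member passed the test of a slope difference. The median slope difference between diffTBLC and TBLC was 0.00 per hour, ranging from -0.05 to 0.05, with 0 members higher, against 2.56% of all genes, and 0 lower, against 5.66% of all genes. At an unadjusted p under 0.05 edgeR also gave 0 members in either direction, and DESeq2 called 0. The 0 h libraries decided this value: without them 62 members had a higher slope in diffTBLC, with a median difference of 0.10. The share of all genes in that fit is not given, so whether the 62 are particular to the members cannot be told.

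Between TBLC_PlaB- and TBLC_Ctrl 5 members had a higher slope in TBLC_PlaB-, against 0.319% of all genes, with a median difference over the 77 of 0.05 per hour. They were Rps21 (0.13 ± 0.021, adjusted p = 0.00462), Rpl10 (0.09, adjusted p = 0.0124), Rpl30 (0.11, adjusted p = 0.0190), Rplp0 (0.10, adjusted p = 0.0344) and Rpl31 (0.09, adjusted p = 0.0358), all of them among the 12 that were lower in TBLC_PlaB- at 0 h. Both results draw on the same 0 h libraries. The number ranged from 0, without replicate 2 of TBLC_PlaB- at 3 h, to 12, without replicate 1 of TBLC_Ctrl at 0 h, and it was 77 without all 0 h libraries. The share of all genes in the fit without 0 h libraries is not given. The hourly levels show the shape behind the slopes. Rplp2 measured 4735 and 4689 CPM at 0 h, 5423 and 5242 at 1 h, 7099 and 7420 at 2 h and 9251 and 9058 at 3 h in TBLC_PlaB-, and 4791 and 4642, 6906 and 6801, 7236 and 7627, and 8785 and 8877 CPM at the same hours in TBLC_Ctrl. The arms lay apart at 1 h, with TBLC_PlaB- lower, and less far apart at 3 h, with TBLC_PlaB- higher. At 0 and 2 h they lay within about the spread of their replicates.

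**Figure D4:**
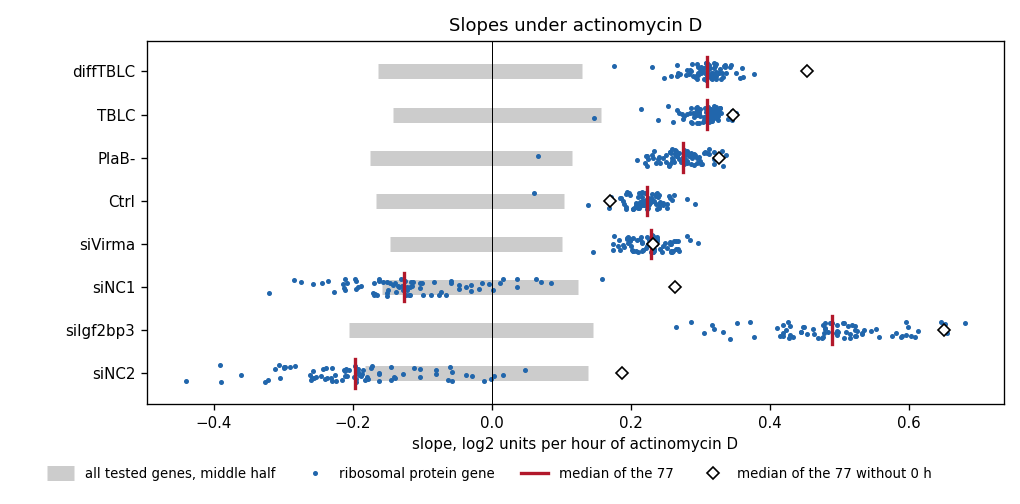
Slope (log2 per hour of actinomycin D, relative to the centre of all transcripts) of each of the 77 members, 1 arm a row; blue points are genes, red lines the median of the members, open diamonds that median without the 0 h libraries and grey bars the range between the quartiles of all genes tested. The members cluster near 0.31 in diffTBLC and TBLC, spread to either side of -0.13 in siNC1 and lie mostly below 0 in siNC2 (median -0.20).

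In the siRNA courses the slopes depended on which libraries were fitted. In siVirma 40 members had a positive slope past the threshold, against 15.9% of all genes, with a median of 0.23 per hour; the number was 7 without replicate 2 of siVirma at 0 h, at most 33 with any other library of the arm left out, and 71 with DESeq2. In siNC1 1 member, Rpl29, had a positive slope, against 23.2% of all genes, and 4 had a negative one, against 21.8% of all genes: Rplp2 (-0.32), Rpl36 (-0.28), Rpl13a (-0.21) and Rpl35a (-0.21). The median in siNC1 was -0.13, and 0.26 without the 0 h libraries. In this arm 0 were called in either direction without a 3 h replicate, 1 without a 0 h replicate, 2 without replicate 1 at 2 h, and 32 and 37 without replicate 1 or 2 at 1 h. In the libraries labelled siIgf2bp3 all 77 had a positive slope, against 27.0% of all genes, with a median of 0.49, but without both 3 h libraries 0 were called, with a median of 0.32. In those labelled siNC2 15 had a negative slope, a share below the 22.8% of all genes, with a median of -0.20, and 0.19 without the 0 h libraries. The 15 became 0 without a 0 h replicate, 2 and 3 without a 3 h replicate, and 58 and 59 without a 1 h replicate.

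The difference between the arms reversed between 0 h and the later hours. At 0 h 76 members were lower in siVirma than in siNC1, against 27.2% of all genes, with a median of -0.85. Over 1 to 3 h 75 were higher, against 35.5% of all genes, with a median of 0.28. The test of this change in the arm difference, added after the siNC libraries at 0 h had been seen, called all 77 members, against 29.2% of all genes, with a median of 1.15. Rplp2 shows it: it measured 1062 and 964 CPM at 0 h, 1132 and 984 at 1 h, 1644 and 1613 at 2 h and 1658 and 1518 at 3 h in siVirma, and 2632 and 2869, 744 and 768, 1381 and 1522, and 1146 and 1227 CPM at the same hours in siNC1. The 0 h libraries of siNC1 lay far above every other library of that arm. The separate steady-state libraries, also without actinomycin D, showed no such lower level in siVirma. There the members took 5.75% of counts in siVirma and 5.84% in siNC, against 11.5% in siVirma and 17.9% in siNC1 at 0 h here. The cause of this disagreement was not tested. The summed primitive endoderm markers did not reverse and were lower in siVirma than in siNC1 at every hour. At 0, 1, 2 and 3 h siVirma had 1184 to 1205, 1192 to 1202, 1110 to 1115 and 1147 to 1153 CPM. At the same hours siNC1 had 2016 to 2088, 3154 to 3227, 2704 to 2712 and 3492 to 3542 CPM. The siNC1 libraries at 0 h were thus the lowest of that arm in these markers, and the part of this in the result was not tested.

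Members with the widest 0 h difference between siVirma and siNC1 were Rplp2 (-1.44 ± 0.058), Rpl36 (-1.33), Rpl38 (-1.28) and Rpl37a (-1.28). Rpl29 had 125 and 124 CPM in siVirma and 132 and 117 CPM in siNC1 and was the single member not called. Rpl10l, Rpl15 and Rpl10 had the narrowest called differences, at -0.23, -0.31 and -0.34, and Rpl4 had 3736 and 3666 CPM in siVirma and 4634 and 4820 CPM in siNC1 (-0.35). Over 1 to 3 h Rpl13a was the highest in siVirma relative to siNC1 (0.59 ± 0.036), followed by Rps12, Rpl10l and Rplp1 at 0.48, 0.47 and 0.46. Rpl13a was also the highest member in siVirma in the separate steady-state libraries, which had no actinomycin D. At 0 h of this course it was instead among the members called lower in siVirma. The slope difference between siVirma and siNC1 was past the threshold for 9 members, against 2.91% of all genes, with adjusted p from 0.0396 to 0.0499 and a median over the 77 of 0.36, led by Rpl36, Rplp1 and Rpl38 at 0.57, 0.55 and 0.54. With each of the 16 libraries left out in turn, 0 were called without any one of 12 of them: each of the siVirma libraries and the siNC1 libraries at 0 and 3 h. Without replicate 1 or 2 of siNC1 at 1 h 72 and 74 were called, and without replicate 2 of siNC1 at 2 h 22. Without all 0 h libraries 0 were called and the median was -0.03.

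The libraries labelled siIgf2bp3 and siNC2 also changed places between 0 h and the later hours, and Igf2bp3 itself went against the labels at 0 h. At 0 h all 77 members were lower in the libraries labelled siIgf2bp3 than in those labelled siNC2, against 24.6% of all genes, with a median of -0.82. Over 1 to 3 h all 77 were higher, against 32.9% of all genes, with a median of 0.77, and by hour the median was 0.55, 0.26 and 1.49. The test of the change between 0 h and the later hours called all 77, against 30.1% of all genes, with a median of 1.59. Rplp2 measured 861 and 916 CPM at 0 h, 940 and 1007 at 1 h, 1346 and 1448 at 2 h and 3523 and 3974 at 3 h in the libraries labelled siIgf2bp3, and 2217 and 2244, 593 and 558, 1038 and 1023, and 764 and 727 CPM at the same hours in those labelled siNC2. The 3 h libraries of the first arm and the 0 h libraries of the second were each far above the rest of their arm. Without both 3 h libraries labelled siIgf2bp3, all 77 were still higher over 1 and 2 h, with a median of 0.44, and all 77 still changed between 0 h and these hours, with a median of 1.35. Shares of all genes are not given for these hours alone. The summed primitive endoderm markers changed places too, in the opposite direction to the members. At 0, 1, 2 and 3 h libraries labelled siIgf2bp3 had 2388 to 2413, 2458 to 2487, 2360 to 2362 and 2305 to 2311 CPM. Those labelled siNC2 had 2051 to 2073, 3885 to 3951, 2991 to 3008 and 4208 to 4255 CPM. The part of this was not tested.

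The slope difference between the libraries labelled siIgf2bp3 and siNC2 called all 77 members, against 26.4% of all genes, with a median of 0.70 per hour; without the 0 h libraries 0 were called and the median was 0.47, and without both 3 h libraries labelled siIgf2bp3 0 were called and the median was 0.53. At 0 h Rplp2 (-1.33 ± 0.048), Rpl38 (-1.30), Rplp1 (-1.29) and Rpl36 (-1.28) were lowest, and Rpl15, Rpl29, Rpl7a and Rpl4 were closest to 0, at -0.27, -0.27, -0.33 and -0.35. Over 1 to 3 h Rplp2 (1.18 ± 0.028), Rpl38 (1.12), Rpl36 (1.11) and Rps28 (1.05) were highest and Rpl29, Rpl10 and Rpl15 lowest, at 0.33, 0.37 and 0.38. Mitochondrial ribosomal protein genes moved in the same directions, with 1 higher and 68 lower at 0 h, and 74 higher and 1 lower over 1 to 3 h. The share of counts on mitochondrially encoded genes also moved, with 1.65% in siNC2 at 0 h and 2.50% at 1 h, and 1.46% in siNC1 at 0 h and 2.23% at 1 h; its part in these results was not tested.

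The immunoprecipitations ask which transcripts the readers IGF2BP3 and YTHDF2 bind. No control antibody was used here, so values are the level in the bound RNA relative to the input, after each table was centred. Ribosomal protein transcripts were depleted in both. They made up 2.64% of counts in the Igf2bp3 IP and 6.21% in its input, and 2.41% in the Ythdf2 IP and 9.89% in its input. In the Igf2bp3 IP 75 members were lower than in the input, against 34.8% of all genes, and 1 was higher, against 35.0% of all genes. The median was -1.47, a 0.361-fold level, with -1.27 in the large and -1.66 in the small subunit. In the Ythdf2 IP 76 were lower, against 38.8% of all genes, and 1 was higher, against 40.2% of all genes, with a median of -2.51, and -2.23 in the large and -2.75 in the small subunit. The IP captures a protein, so no transcript level checks which protein was captured. The diffTBLC label of the inputs is set against markers below.

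The members spread widely in the Igf2bp3 IP. Rpl4, one of the longest proteins of the large subunit, was the single member above its input, with 2944 and 2887 CPM in the IP and 2108 and 2191 CPM in the input, a 1.36-fold level (log2 0.44 ± 0.0074). Rpl23a had 1232 and 1212 CPM in the IP and 1206 and 1212 CPM in the input and was not called (0.02 ± 0.017, adjusted p = 0.424), although scaled to library totals it was lower (-0.18, adjusted p = 2.79e-21). Rpl3, another long protein of the large subunit, had 1033 and 1035 CPM in the IP and 1112 and 1115 CPM in the input (-0.11 ± 0.021, adjusted p = 8.83e-07). Rpl5 had 1498 and 1490 CPM in the IP and 1709 and 1718 CPM in the input (-0.20 ± 0.015), and Rps6 had 795 and 784 CPM in the IP and 990 and 1020 CPM in the input (-0.35 ± 0.024). At the other end, Rplp1 had 207 and 212 CPM in the IP and 1452 and 1536 CPM in the input (-2.84 ± 0.032). Rps21 had 48.1 and 44.0 CPM in the IP and 295 and 313 CPM in the input (-2.72 ± 0.051), and Rps28 had 71.6 and 70.4 CPM in the IP and 456 and 471 CPM in the input (-2.71). For Rplp1, Rps21 and Rps28 the IP and input libraries did not overlap.

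In the Ythdf2 IP Rps21 and Rplp1 were again lowest. Rps21 had 48.0 and 47.6 CPM in the IP and 528 and 533 CPM in the input (-3.47 ± 0.063), and Rplp1 had 217 and 212 CPM in the IP and 2375 and 2370 CPM in the input (-3.47 ± 0.047). Rps12 and Rpl39 followed at -3.37 and -3.35. Rpl4 was the least depleted of those that fell, with 2349 and 2437 CPM in the IP and 3368 and 3365 CPM in the input (-0.49 ± 0.040, adjusted p = 3.67e-18), followed by Rpl13a, Rpl5 and Rpl14 at -0.66, -0.71 and -0.98. The single member above its input was Rpl10l, with 48.9 and 52.9 CPM in the IP and 40.1 and 37.8 CPM in the input (0.39 ± 0.116, adjusted p = 0.00196), whereas Rpl10 had 130 and 127 CPM in the IP and 1112 and 1063 CPM in the input (-3.08 ± 0.052). In the Igf2bp3 IP Rpl10l was lower, with 5.99 and 4.80 CPM in the IP and 17.4 and 20.4 CPM in the input.

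**Figure D5:**
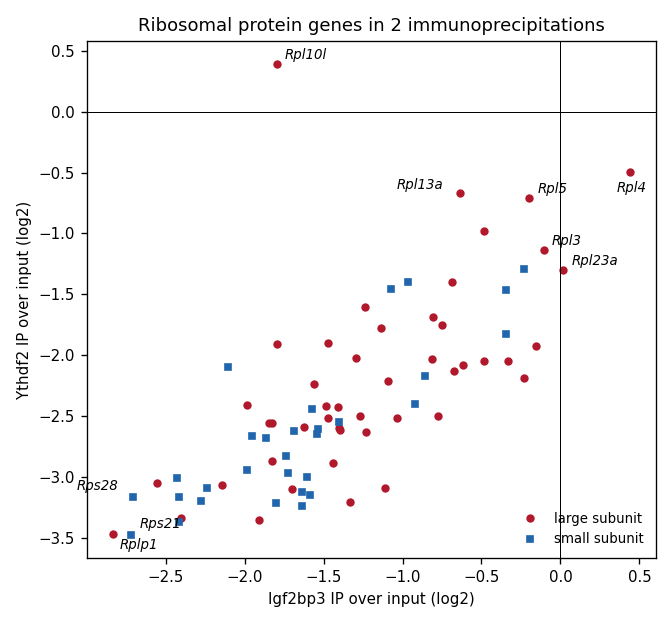
Log2 level in the IP over input of the 77 members in the Igf2bp3 (horizontal) and Ythdf2 (vertical) immunoprecipitations, 1 point a gene, red for the large and blue for the small subunit. Most genes lie in the lower left, Rpl4 lies right of 0 (0.44) and Rpl10l above 0 (0.39).

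Across the 77 genes the 2 immunoprecipitations had a Pearson r of 0.71 and a Spearman rho of 0.76, and 0.81 and 0.80 without Rpl10l. This is a description over genes of 2 tables with separate inputs, and genes are not independent replicates. Between the Igf2bp3 IP values, from diffTBLC, and the slopes in TBLC_Ctrl, which are other cells, r was -0.06, and -0.13 without Rpl10l. Other genes of the translation machinery were depleted less. Mitochondrial ribosomal protein genes had a median of -1.05 in the Igf2bp3 IP, with 2 higher and 73 lower, and of -1.01 in the Ythdf2 IP, with 10 higher and 59 lower. TOP transcripts other than the members had medians of -0.72 and -1.12, with 4 higher and 12 lower in the Igf2bp3 IP and 1 higher and 15 lower in the Ythdf2 IP. Eef1a1, the most used elongation factor, fell by 0.48 in the Igf2bp3 IP, while Eef2, the translocase, was higher there (0.32 ± 0.004). Larp1, whose protein binds TOP ends, was higher in the Igf2bp3 IP (0.61 ± 0.026) and in the Ythdf2 IP (1.41 ± 0.049). The primitive endoderm markers summed to 15276 to 15283 CPM in the Igf2bp3 IP and 6267 to 6381 CPM in its input, and to 786 to 793 CPM in the Ythdf2 IP and 743 to 752 CPM in its input. The epiblast markers summed to 2295 to 2317 CPM in the Igf2bp3 input and 3798 to 3918 CPM in the Ythdf2 input. The 2 inputs, both labelled diffTBLC, thus differed in their markers, and the immunoprecipitations differ in more than the antibody. The primitive endoderm sum of the Ythdf2 input lay between those of TBLC at 0 h (326 to 331 CPM) and of TBLC beside the sorted cells (1383 to 1423 CPM). It was below those of diffTBLC (3534 to 3548 CPM) and siNC1 (2016 to 2088 CPM) at 0 h. These libraries were scaled separately, and how far the cells of the Ythdf2 libraries had differentiated was not tested. The share of mitochondrially encoded counts was 0.15% in the Ythdf2 IP and 1.06% in its input. Their part in the depletion was not tested.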

How the data were processed

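The authors deposited 9 tables of raw counts per gene symbol, whole numbers per the files' values, for 86 of 98 samples in 43 groups of 2. Per the submitters' processing notes, the genome build was mm39 and the tools named are STAR 2.7.11b and Subread, FastQC 0.12.1 and Trim Galore, and DESeq2. Per the labels' protocols, total RNA was made into libraries with either of 2 stranded kits, and which library used which is not given. Reads shared with paralogs and the many pseudogenes of these genes may be split, and how they were assigned is not stated. m6A peak lists and the m6A inputs were not analysed here.

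Each table was normalized on its own, so CPM of different tables are not comparable. Counts were filtered (filterByExpr on the groups), scaled (TMM) and tested in R 4.3.3 with the quasi-likelihood F test of edgeR 4.0.16 on group means, or on arm slopes against hours, with Benjamini-Hochberg adjustment over all genes and a threshold of 0.05. Pipelines were tested on simulated data. The sorted table was only described. Same-numbered replicates did not deviate together (correlations from -0.05 to 0.09), so no block was used. Alternatives were DESeq2 1.42.0, RLE, library totals, no filter, only the libraries compared, a replicate block, each library left out and, for slopes, no 0 h or 3 h against 0 h.

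Members and lists were chosen with earlier results of these data known. Genes were named by a rule: 19 anchors, the 4 largest and 4 smallest changes among called members of a comparison, up to 3 genes a list and the targeted genes. Other genes named, such as Rpl10l and Rps27l beside their paralogs, were chosen after their values were seen.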

Additional observations from a re-analysis of the deposited data

Results flagged for a closer look

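For 5 results the difference between 2 arms was itself different between hours, by its own test. The slope under actinomycin D was higher in TBLC_PlaB- than in TBLC_Ctrl for 5 of 77 members, and higher in siVirma than in siNC1 for 9 of 77. These 9 became 0 without any one siVirma library, with a replicate block, with library totals and without the 0 h libraries. The slope was higher in the libraries labelled siIgf2bp3 than in those labelled siNC2 for 77 of 77, and for 0 without the 0 h libraries or without both siIgf2bp3 libraries at 3 h. The arm difference over 1 to 3 h minus that at 0 h was positive for 77 of 77 members between siVirma and siNC1, and for 77 of 77 between the libraries labelled siIgf2bp3 and siNC2. The last pair of tests was added after the shares of siNC1 and siNC2 at 0 h were known. Groups of 2 are too small to look for single libraries that lie apart.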

How the results depend on the processing

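Counts below are members past the threshold unless a median is named. No share of all genes is given beside them, so they do not show what is particular to the members. With library totals the medians were 0.28 for PrE-T against EPI-T, 0.17 for PrE-T against TBLC and -0.15 for EPI-T against TBLC, the last with the opposite sign. In diffTBLC against TBLC 5 were then lower and Rps27 was at -0.15. Rpl23a was at -0.18 in the Igf2bp3 IP, slopes were positive for 10 in siVirma and negative for 26 in siNC1 and 54 in siNC2, and the slope difference of siVirma and siNC1 called 0. Without a filter 19 were lower in TBLC_PlaB- at 0 h, 2 were higher in the Igf2bp3 IP, 65 slopes were positive in siVirma, and the slope differences called 9 (PlaB-) and 0 (siVirma). DESeq2 gave 3 lower in TBLC_PlaB- at 0 h, 1 higher and 1 lower in siVirma, 0 lower in siMettl3 (10 at an unadjusted p under 0.05 by edgeR), 71 positive slopes in siVirma and 58 slope differences of siVirma. A fit of the compared libraries alone gave 3 lower in TBLC_PlaB- at 0 h, and RLE gave 2 negative slopes in siNC1. With the replicate number as a block, 1 slope was negative in siNC1 and 0 slope differences of siVirma were called, and no other count moved by over 1.5 times.

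Without 0 h libraries 51 slopes were positive and 0 negative in siNC1 (median 0.26), 0 were negative in siNC2 (median 0.19), and the slope differences called 62 (diffTBLC), 77 (PlaB-), 0 (siVirma, median -0.029) and 0 (siIgf2bp3). Without both siIgf2bp3 libraries at 3 h, an alternative chosen after seeing the data, 0 slopes were positive in siIgf2bp3 and its slope difference called 0. From 3 h against 0 h alone, 77 rose in siVirma, 3 rose and 71 fell in siNC1, 76 fell in siNC2, and the differences called 13 higher and 3 lower (diffTBLC), 39 (PlaB-) and 76 (siVirma). Leaving out each library gave 3 to 10 lower in TBLC_PlaB- at 0 h, 1 to 4 higher and 2 to 6 lower in siVirma, 0 to 0 lower in siMettl3, and 7 to 33 positive slopes in siVirma. It gave 0 to 1 positive and 0 to 36 negative slopes in siNC1, and 0 to 59 negative ones in siNC2, the fewest without either 0 h replicate. Slope differences ranged from 0 to 12 (PlaB-), 0 to 74 (siVirma, with 0 for 12 of 16 libraries left out, all siVirma libraries among them) and 76 to 77 (siIgf2bp3). The cause of these shifts was not tested. With groups of 2, a lone library left in a group is assumed to vary like the others.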

Other observations

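TBLC2, a pair of libraries from cells in 2MYCP with no comparison group in their table, had 5.83 and 5.89% of counts on the 77 members.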
